A study of Rattus norvegicus with 87 samples.

Results

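The endoplasmic reticulum (ER) is the compartment in which secreted and membrane proteins are folded. Its lumen holds chaperones, which keep unfinished chains from clumping, lectins, which hold glycoproteins until they are folded, and disulfide isomerases, which form and rearrange disulfide bonds. When unfolded protein builds up, sensors in the ER membrane start the unfolded protein response: the factors ATF6 and XBP1 raise the transcription of chaperones through an ER stress element in their promoters, and the kinase PERK favours translation of ATF4, which in turn raises transcription of DDIT3 (CHOP). Neurons carry large amounts of secretory and membrane protein, and these genes are transcribed in unstressed cells too.

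Expression of 8 genes of this system was described in the lateral habenula (LHb), a small nucleus of the epithalamus, of outbred Heterogeneous Stock rats. The genes were Hspa5 (BiP, the Hsp70 chaperone of the lumen), Hsp90b1 (GRP94, its Hsp90 chaperone), the lectin chaperones Calr (calreticulin, soluble) and Canx (calnexin, membrane-bound), the disulfide isomerases P4hb and Pdia4, and the transcription factors Atf4 and Ddit3. They were taken by their Ensembl identifiers, and all 8 were found among the 17512 genes of the deposited table. The list was drawn up as a group of known function with these data in view, and measured values entered it in that the genes were selected on passing the authors' filter on low counts; levels and correlations are therefore given as descriptions. The identifiers are ENSRNOG00000018294 for Hspa5, ENSRNOG00000026963 for Hsp90b1, ENSRNOG00000003029 for Calr, ENSRNOG00000003343 for Canx, ENSRNOG00000036689 for P4hb, ENSRNOG00000006228 for Pdia4, ENSRNOG00000017801 for Atf4 and ENSRNOG00000006789 for Ddit3. No member was at 0 in any rat.

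The 81 rats with a column, 41 males and 40 females, were untreated, had not been tested for behaviour and were housed in groups. The nucleus was cut out of frozen sections by hand, left and right sides together, and polyadenylated RNA was sequenced. The labels give sex and a rat batch and no age, and each rat counts as 1 biological replicate. Batch 2 held 11 males and 4 females, batch 3 held 10 and 12, batch 4 held 12 and 15, batch 6 held 8 and 8, and batch 5 held 1 female, which was left out of the fits. In bulk tissue, fewer cells of a type and less RNA per cell cannot be told apart. The tissue was not checked against marker genes, because the identifiers of other genes could not be paired with symbols here.

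The values were log2(normalized count + 1), where a normalized count is an estimated read count scaled by the authors to a common upper quartile. Scaled totals lay between 16.2 and 20.2 M counts per rat (M = 1e+06 counts), and 9 rats had more than 1000 genes at 0. To read the column order, rat identifiers that the authors had exchanged were set back to their original label where the labels give one. The identifiers then restart their alphabetical order along the columns of the table, which gives 3 stretches referred to as column runs. What they are is not stated in the labels. Run 1 held all of batch 2 and 7 rats of batch 3, run 2 held 12 rats of batch 3, and run 3 held the last 3 rats of batch 3 and all of batches 4, 5 and 6.

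The promoters are shown first because the ER stress element is the sequence by which chaperone genes are known to be joined to the unfolded protein response. It is written CCAAT, then 9 bases of any kind, then CCACG, and was searched on both strands of the 33469 RefSeq promoter windows, each of 300 bases (250 before and 50 after the annotated start, build GRCr8). It was found in 22 windows (0.0657%), and 4 of these belonged to members, namely Hspa5, Calr, Hsp90b1 and Canx. The stretches that hold it are printed 5′ to 3′ on the gene's strand, with the matched letters of the element in capitals, so that CGTGG and ATTGG mark an element on the opposite strand.
Hspa5, chr3:38452958-38453006 (+): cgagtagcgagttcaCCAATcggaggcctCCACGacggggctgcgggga
Calr, chr19:40213120-40213168 (+): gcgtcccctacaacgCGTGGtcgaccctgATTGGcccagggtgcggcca
Hsp90b1, chr7:23012332-23012484 (-): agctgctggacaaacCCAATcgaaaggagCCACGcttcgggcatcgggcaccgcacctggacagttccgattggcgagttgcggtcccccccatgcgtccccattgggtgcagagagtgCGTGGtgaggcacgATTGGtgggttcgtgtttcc
Canx, chr10:35158054-35158102 (-): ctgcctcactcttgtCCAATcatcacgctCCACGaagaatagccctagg

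Hsp90b1 was the 1 window of the whole set with 2 elements, at positions -176 to -158 and, on the opposite strand, -72 to -54 from the annotated start. The element of Hspa5 lay at -43 to -25, that of Calr at -232 to -214 and that of Canx at -230 to -212. The windows of Pdia4, P4hb, Atf4 and Ddit3 held no exact match. Pdia4 is shown as well, because its level went with that of Hspa5, Calr and Hsp90b1 although no exact match was found in its window. Its window holds CCAAT in both directions, marked in capitals.
Pdia4, chr4:78153230-78153293 (-): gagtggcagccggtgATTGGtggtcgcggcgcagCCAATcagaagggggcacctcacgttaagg

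The short parts of the element were common. CCAAT was in 37.5% of all windows and in 7 of the 8 members (all but Atf4), and CCACG was in 31.6% of windows and in all 8 members. Of 3 other sites searched, the composite C/EBP-ATF site TGATGNAA was in 3.98% of windows, the cAMP response element TGACGTCA in 1.83% and TGACGTGG in 0.595%, and no member held any of them. A match is a description of letters, and the absence of a match concerns only these letters in this window.

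Levels differed in how widely they were spread over the rats. Hspa5 had the widest range, from 12.20 through a median of 12.83 to 13.61 on the log2 scale, which is 4715 to 12497 normalized counts or a 2.65-fold range. Its SD over all rats was 0.300 (n = 81). Hsp90b1 ranged from 12.26 through 12.67 to 13.23 (1.95-fold). For neither gene did a rat stand apart from the others of its sex and batch by Dixon's criterion, where a set held 4 to 10 rats. Such sets were the females of batch 2, the males of batch 3 and both sexes of batch 6. The rat with the highest value of both genes was in batch 5 and was not covered.

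Among the lectins, Calr ranged from 12.20 through 12.71 to 13.26 (2.09-fold) and Canx from 13.43 through 13.89 to 14.25 (1.77-fold). Among the isomerases, Pdia4 ranged from 9.30 through 9.82 to 10.38 (2.12-fold). P4hb, the isomerase that also serves as a subunit of prolyl hydroxylase, ranged only from 11.40 through 11.56 to 11.83 (1.35-fold). Of the transcription factors, Ddit3 ranged from 8.69 through 9.15 to 9.99, or 413 to 1015 normalized counts (2.46-fold), and Atf4 from 12.08 through 12.34 to 12.79 (1.64-fold). Levels are not ranked between genes, because transcript lengths were not used here.

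The rat with the highest Hspa5 (13.61), Hsp90b1 (13.23) and Canx (14.25) was the single female of batch 5. Counted from the highest of 81, it had rank 3 for Pdia4 (10.29) and rank 6 for Calr (13.15), but rank 40 for Ddit3 (9.15). With 1 rat, its batch and the rat itself cannot be told apart. At the other end, female 14 of batch 6 had the lowest Hspa5 (12.20), Pdia4 (9.30) and Ddit3 (8.69).

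**Figure D1:**
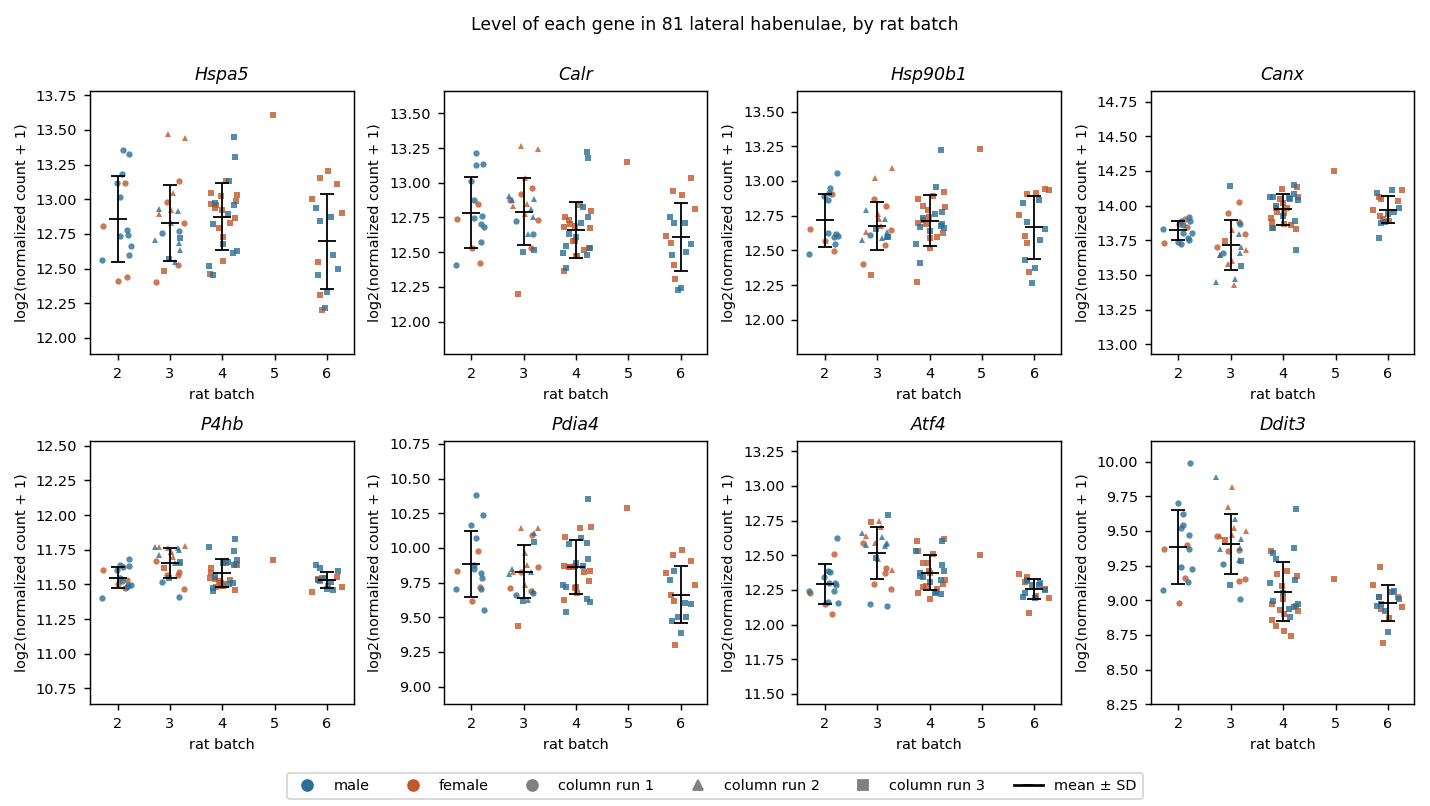
Level of each gene, log2(normalized count + 1), in each of 81 rats by rat batch. Points are rats, coloured by sex and shaped by column run, and bars are the mean ± SD of a batch (none for batch 5, 1 rat); every panel spans 1.9 log2 units. Canx was lower and Atf4 higher in batch 3 than in batches 4 and 6, Ddit3 was higher in batches 2 and 3, and Hspa5 was spread widely in every batch with more than 1 rat.

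The spread that was left after sex, batch and column run was set beside that of other genes. Among the 13360 genes whose mean log2 level was 5 or more, the median residual SD was 0.215. The means of the members lay between 9.20 (Ddit3) and 13.88 (Canx), and genes with fewer counts carry more counting error. The percentiles below are thus not those among genes of like level. Hspa5 was above it at 0.284, at percentile 70.4, and Calr (0.219), Pdia4 (0.204), Ddit3 (0.2005) and Hsp90b1 (0.191) lay near it, at percentiles 51.3, 45.8, 44.6 and 40.4. Atf4 (0.121) and Canx (0.116) were at percentiles 9.88 and 8.15. P4hb was among the steadiest genes of this set, at 0.0791 and percentile 0.823. Counting error alone would give SDs of 0.0117 for Canx to 0.0606 for Ddit3 at their median normalized counts, which were scaled and are only near the true depth, so every residual SD exceeded it.

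The variance was divided in order, with sex entered before batch and batch before column run. Most batches lay wholly within a run, so variance that batch and run share was credited to batch. The shares of batch and run thus depend on this order and are not separate effects. After sex, batch held 44.4% of the variance of Canx, 43.5% of Ddit3, 33.3% of Atf4, 22.5% of P4hb, 14.1% of Pdia4 and 10.4% of Calr. It held 5.29% for Hspa5 and 1.53% for Hsp90b1. Column run added 19.7% for P4hb, 19.2% for Atf4, 13.3% for Calr and 10.6% for Canx. Thus 89.1% of the variance of Hspa5 and 93.7% of that of Hsp90b1 lay between rats of the same sex, batch and run, against 44.4% for Canx.

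Males and females were compared with rat batch as a covariate (limma with an intensity trend, Benjamini-Hochberg adjustment over all 17512 genes, 80 rats). No member passed the threshold of 0.05, beside 0.131% of all genes. At an unadjusted p under 0.05 the limma count was 0 of 8 members and 882 of all genes. The estimates, male minus female, ran from -0.069 for Hspa5 (SE 0.0641, 95% interval -0.196 to 0.0588) to 0.060 for Ddit3 (SE 0.0479, interval -0.0349 to 0.156), each with a limma adjusted p of 0.998. Differences beyond about these bounds were thus outside the intervals, and smaller ones were not resolved. The signs of Calr, Hsp90b1, Pdia4, Atf4 and P4hb changed under at least 1 alternative, so no direction is given for them.

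In males Hspa5 ranged from 12.22 through a median of 12.74 to 13.45 (n = 41), and in females from 12.20 through 12.92 to 13.61 (n = 40, batch 5 included). The sexes overlapped over nearly the whole range. Within batches, the difference for Hspa5 was 0.22 in batch 2 (SE 0.160), -0.19 in batch 3 (SE 0.107), -0.01 in batch 4 (SE 0.0919) and -0.21 in batch 6 (SE 0.153), none with a limma adjusted p under 0.998. In column run 2, with 6 rats of each sex, it was -0.36 (SE 0.117, unadjusted limma p 0.00743, adjusted p 1). In runs 1 and 3 it was 0.15 (SE 0.130) and -0.07 (SE 0.0801). The unadjusted p of run 2 was the lowest of all members over the single batches and runs. A test of whether the sex difference varied between batches called no member, where 0% of all genes were called. At an unadjusted limma p under 0.05 it called 0 of 8 members, beside 306 of 17512 genes. The limma adjusted p was 1.00 for all members.

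The rat batches were compared with sex as a covariate. In the F-test over batches 2, 3, 4 and 6, 5 of the 8 members passed, beside 65.3% of all genes, so that the share of members was near that of the table. They were Ddit3 (limma adjusted p 5.8e-09), Canx (1.2e-08), Atf4 (3.5e-06), P4hb (0.00094) and Pdia4 (0.0145). Calr missed the threshold at 0.0532 and passed it under 5 alternatives. Hspa5 (0.276) and Hsp90b1 (0.782) missed it. With column run in the fit, 2 members passed (Atf4 and Pdia4), beside 35.3% of all genes. Ddit3 (limma adjusted p 0.142), Canx (0.296) and P4hb (0.325) then missed the threshold.

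Ddit3, which encodes the factor CHOP, ranged from 8.98 through a median of 9.37 to 9.99 in batch 2, from 9.01 through 9.40 to 9.89 in batch 3, from 8.74 through 8.997 to 9.66 in batch 4 and from 8.69 through 8.99 to 9.24 in batch 6. Batches 2 and 3 were the higher pair, with overlap in every comparison. The fitted difference was -0.31 for batch 4 against batch 2 (SE 0.0687, limma adjusted p 0.00027) and -0.43 for batch 6 against batch 3 (SE 0.0687, adjusted p 1.2e-07). Adding column run to the fit gave -0.32 (adjusted p 0.134) and -0.29 (adjusted p 0.0573). Batch 6 against batch 2 passed in both fits, at -0.39 (adjusted p 1.7e-05) and, with column run, -0.41 (adjusted p 0.0389).

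Canx, the membrane-bound lectin, ran the other way between the same batches. It ranged from 13.72 through 13.83 to 13.92 in batch 2, from 13.43 through 13.69 to 14.14 in batch 3, from 13.68 through 13.98 to 14.15 in batch 4 and from 13.77 through 13.96 to 14.11 in batch 6. Batch 4 exceeded batch 3 by 0.25 (SE 0.0373, limma adjusted p 3.6e-08) and batch 2 by 0.15 (SE 0.0427, adjusted p 0.00519). With column run in the fit the differences were 0.16 (adjusted p 0.101) and 0.17 (adjusted p 0.188).

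Atf4, the factor upstream of Ddit3, was highest in batch 3. It ranged from 12.08 through 12.29 to 12.62 in batch 2, from 12.14 through 12.58 to 12.79 in batch 3, from 12.19 through 12.35 to 12.62 in batch 4 and from 12.09 through 12.27 to 12.36 in batch 6. Batch 3 exceeded batch 2 by 0.23 (SE 0.0484, limma adjusted p 0.00321), and batch 6 was below batch 3 by a fitted difference of -0.26 (SE 0.0467, adjusted p 1.9e-06). With column run in the fit the first became 0.0156 (adjusted p 0.965) and the second -0.42 (adjusted p 2.5e-05). That fit set batches 4 and 6 against batches 2 and 3 only through the 3 rats of batch 3 in run 3. Their Atf4 was 12.74, 12.48 and 12.79, and they had 1404, 1578 and 1550 genes at 0. Against batch 2, the estimate for batch 4 turned from 0.08 (adjusted p 0.171) to -0.29 (adjusted p 0.0266) and that for batch 6 went from -0.03 (adjusted p 0.638) to -0.40 (adjusted p 0.00114).

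P4hb moved by less. Its medians were 11.53, 11.66, 11.54 and 11.53 in batches 2, 3, 4 and 6, and batch 6 differed from batch 3 by -0.12 (SE 0.0311, limma adjusted p 0.00038). With column run in the fit this was -0.0748 (adjusted p 0.26). Pdia4 had medians of 9.84, 9.82, 9.86 and 9.64, and batch 6 differed from batch 2 by -0.23 (SE 0.0733, limma adjusted p 0.0081). With column run in the fit this was -0.153 (adjusted p 0.484). Calr passed in 1 pair of batches, batch 6 against batch 3, at -0.18 (SE 0.0753, limma adjusted p 0.0329), and the sign reversed to 0.206 with column run as a covariate (adjusted p 0.221).

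The number of members past the threshold was set beside that of all genes for each pair of batches. For batch 6 against batch 3 it was 6 of 8 beside 59.2% of all genes, for batch 4 against batch 3 it was 4 beside 54.9%, and for batch 6 against batch 2 it was 3 beside 42.4%. For batch 4 against batch 2 it was 2 beside 33.9%, for batch 3 against batch 2 it was 2 (Atf4 and P4hb) beside 7.44%, and for batch 6 against batch 4 it was 1 (Pdia4, limma adjusted p 0.0491) beside 6.04%. The Pdia4 call was lost under 4 alternatives, with adjusted p-values of 0.0521 to 0.11 and estimates of -0.188 to -0.201. Of the genes with a mean log2 level of 5 or more, 70%, 65.7%, 53.2%, 42.4%, 10.1% and 9.67% passed, in the order above. Hspa5 and Hsp90b1 passed in none of the 6 pairs of batches. With column run in the fit, no pair of batches had more than 2 members past the threshold, beside 0% to 39.3% of all genes. The pairs share batches, so these counts are not independent of each other.

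Batch and column run were then parted where they crossed. Within batch 3, run 2 (12 rats) was compared with run 1 (7 rats), with sex as a covariate. Here 4 of 8 members passed, beside 23% of all genes. P4hb, Atf4 and Ddit3 were higher in run 2, as were 11.7% of all genes, and Canx was lower, as were 11.3%.

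P4hb ranged from 11.41 through a median of 11.57 to 11.67 in run 1 and from 11.65 through 11.74 to 11.78 in run 2, and 10 of the 12 rats of run 2 were above all 7 rats of run 1. The fitted difference was 0.20 (SE 0.0385, limma adjusted p 0.0037). Atf4 ranged from 12.14 through 12.29 to 12.59 in run 1 and from 12.39 through 12.59 to 12.75 in run 2, a difference of 0.30 (SE 0.0594, limma adjusted p 0.0045). In run 2, 7 of 12 rats were above all rats of run 1.

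Ddit3 ranged from 9.01 through 9.26 to 9.46 in run 1 and from 9.29 through 9.48 to 9.89 in run 2, with 8 rats above all those of run 1, and differed by 0.31 (SE 0.0810, limma adjusted p 0.0134). Canx ranged from 13.65 through 13.87 to 14.02 in run 1 and from 13.43 through 13.64 to 13.83 in run 2, with 7 rats below all those of run 1, and differed by -0.21 (SE 0.0650, limma adjusted p 0.0281). The runs overlapped for all 8 genes. Hspa5 (0.20, SE 0.112), Calr (0.17, SE 0.0757), Pdia4 (0.13, SE 0.0752) and Hsp90b1 (0.12, SE 0.0734) had estimates above 0 with limma adjusted p-values of 0.198, 0.0989, 0.232 and 0.236.

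Within run 1, batch 3 against batch 2 (7 and 15 rats) gave 0 members by limma at an adjusted p under 0.05, beside 0% of all genes. At an unadjusted limma p under 0.05 it gave 0 members, beside 1507 of 17512 genes. The estimates lay between -0.10 for Ddit3 and 0.025 for Calr, and the 95% interval for Ddit3 was -0.335 to 0.142. Within run 3, batch 6 against batch 4 (16 and 27 rats) gave 2 members beside 10% of all genes. These were Pdia4, at -0.19 (SE 0.0610, limma adjusted p 0.0366), and Atf4, at -0.11 (SE 0.0354, adjusted p 0.0339). Both passed no longer once the count of zero genes per rat entered the fit, at -0.178 (adjusted p 0.133) and -0.0856 (adjusted p 0.191). They also did not pass without the rats of batches 4 and 6 with over 1000 genes at 0. The estimates were then -0.202 for Pdia4 (limma adjusted p 0.071) and -0.112 for Atf4 (adjusted p 0.0693), where 2.82% of all genes passed. What the runs stand for, and their part in these differences, was not tested.

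**Figure D2:**
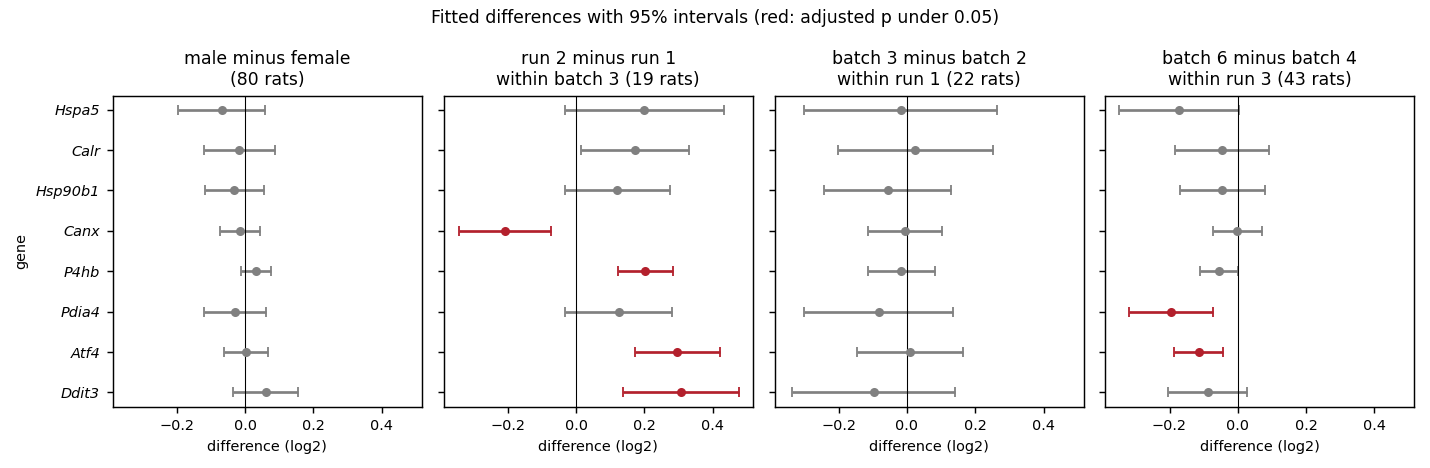
Fitted differences of the 8 genes on the log2 scale, with 95% intervals, for sex (80 rats, batch as a covariate), for column run 2 against run 1 within batch 3, for batch 3 against batch 2 within run 1 and for batch 6 against batch 4 within run 3 (sex as a covariate in the last 3). Red points had a limma adjusted p under 0.05; these were P4hb, Atf4, Ddit3 and Canx between the runs and Pdia4 and Atf4 between batches 6 and 4.

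How the genes varied together was described by Pearson's r over 80 rats, on residuals after sex, batch and column run. No p is given, since the rats share batches, the dissection and the scaling of their library. Over all 89238120 pairs of those 13360 genes, the median r was -0.0023, the quartiles were -0.189 and 0.188, and 95% of pairs lay below 0.50.

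The chaperones of the Hsp70 and Hsp90 systems had the highest r among the members. Hspa5 and Hsp90b1 had an r of 0.910, and 0.00551% of all gene pairs were at or above it. Hspa5 and Calr had an r of 0.897, Calr and Hsp90b1 0.866, Calr and Pdia4 0.846, Hspa5 and Pdia4 0.815, and Hsp90b1 and Pdia4 0.727. The 6 pairs among these 4 genes, a group chosen after the values were seen, had a median of 0.856, and 0.635% of all pairs were at or above the lowest of the 6.

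The values were recomputed in ranks and in subsets of the rats. Spearman's rho was 0.920 for Hspa5 and Hsp90b1 and 0.870 for Hspa5 and Calr. Without the 2 rats farthest from the median of Hspa5 the Pearson values were 0.899 and 0.886. Within single batches, r for Hspa5 and Hsp90b1 lay between 0.883 and 0.954, and for Hspa5 and Calr between 0.725 and 0.940. In males and females apart, Hspa5 and Hsp90b1 had an r of 0.910 and 0.915. Removing 20 expression components gave 0.947 for this pair.

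The size of the common movement differed by gene. The slope of the residuals on those of Hspa5 was 0.691 for Calr, 0.611 for Hsp90b1 and 0.585 for Pdia4 on the log2 scale, so these moved by less than Hspa5 did. The difference Hspa5 minus Hsp90b1 had a residual SD of 0.131, against 0.273 for Hspa5 and 0.183 for Hsp90b1 themselves (SDs of the residuals, without correction for the fitted terms). For Canx the slope was 0.036.

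Canx, although an ER lectin like Calr and with the stress element in its promoter window, did not share this variation. Its r was 0.066 with Calr, 0.088 with Hspa5, -0.025 with Pdia4 and -0.050 with P4hb, all between the quartiles of all pairs. With Hsp90b1 it was 0.338. When 20 components were removed, its r with these genes was higher, up to 0.590 with Hsp90b1 and 0.589 with Calr. P4hb was intermediate, with an r of 0.477 with Calr, 0.437 with Pdia4, 0.277 with Hsp90b1 and 0.268 with Hspa5. Over all 15 pairs of the 6 ER residents the median r was 0.437.

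Of the factors, Atf4 and Ddit3 had an r of 0.693 with each other, and 0.969% of all pairs were at or above this. Between settings it ranged from 0.435 with 20 components removed to 0.796 in 1 batch. Over all 80 rats Atf4 had an r of 0.392 with P4hb, 0.243 with Pdia4, 0.131 with Calr, 0.052 with Hspa5 and -0.028 with Hsp90b1. The values near 0 covered opposite signs in subsets. With Hsp90b1, r was 0.333 in batch 2, -0.564 in batch 3 and -0.665 in column run 2, and with Hspa5 it was 0.295, -0.454 and -0.419. Ddit3 stood between the groups, with an r of 0.534 with Calr, 0.469 with Pdia4, 0.465 with P4hb, 0.420 with Hspa5 and 0.328 with Hsp90b1. These values varied between subsets. With Calr, r was 0.303 in females, 0.659 in males and 0.258 in column run 2. With Hspa5 and Hsp90b1 the sign changed, from 0.668 and 0.717 in batch 2 to -0.131 and -0.192 in batch 3, and it was -0.136 and -0.188 in column run 2. The differences between subsets were not tested.

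**Figure D3:**
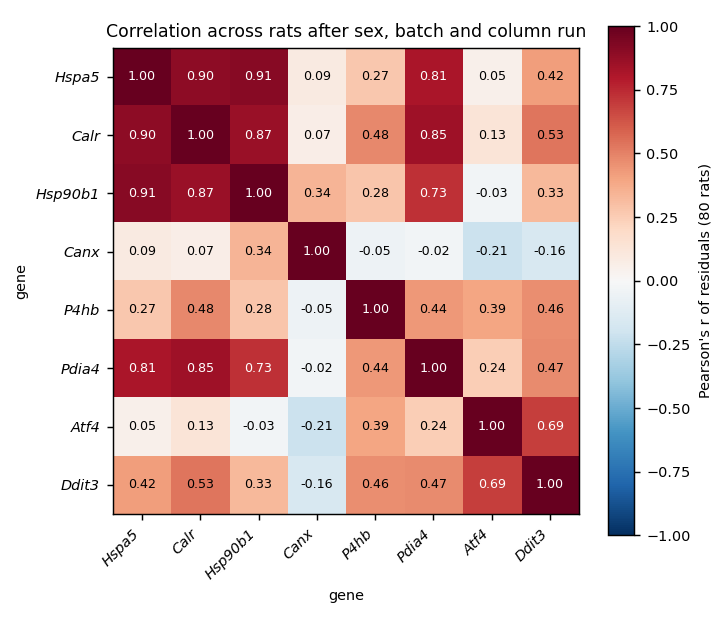
Pearson's r between the residuals of each pair of the 8 genes over 80 rats, after sex, batch and column run; colour runs from -1 (blue) to 1 (red). Hspa5, Calr, Hsp90b1 and Pdia4 had values of 0.727 to 0.910 with each other, Atf4 and Ddit3 0.693, and Canx at most 0.338 with any member.

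**Figure D4:**
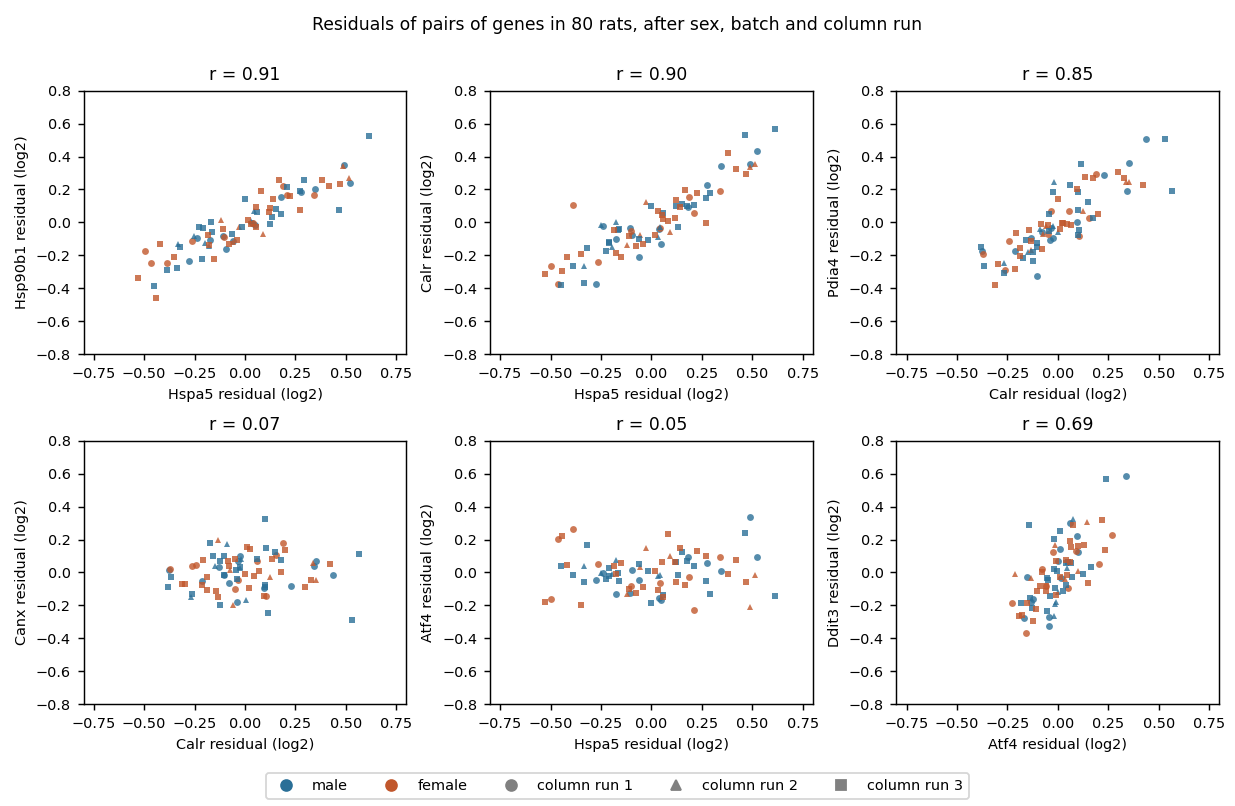
Residuals on the log2 scale of 6 pairs of genes, with 1 point for each of 80 rats, coloured by sex and shaped by column run. The upper panels show Hspa5 with Hsp90b1, Hspa5 with Calr and Calr with Pdia4, in which the rats lie along a line in all 3 column runs. The lower panels show Calr with Canx and Hspa5 with Atf4, with r of 0.066 and 0.052, and Atf4 with Ddit3.

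Each gene was then set beside all others of the table. Among the other 13359 genes, Hspa5 had its highest r with Hsp90b1 and its next highest with Calr, and Pdia4 had rank 5. For Hsp90b1 the first was Hspa5 and the next Calr. For Pdia4 the first was Calr, with Hspa5 at rank 5 and Hsp90b1 at rank 10. For Calr the first was ENSRNOG00000050197 (r 0.925), followed by Hspa5 and Hsp90b1.

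ENSRNOG00000050197 was also the gene outside the 8 with the highest r with the mean standardized residual of the 6 ER residents (0.889), followed by ENSRNOG00000015018 (0.860). The lowest were ENSRNOG00000021027 (-0.620) and ENSRNOG00000048961 (-0.560). These identifiers could not be paired with symbols, so the other genes of the ER and stress pathways are not described.

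The number of genes that went along with a member separated the same groups. An r of at least 0.5 was found with 38 genes for Hspa5, 38 for Hsp90b1, 49 for Calr and 54 for Pdia4. It was found with 609 genes for P4hb, 935 for Canx, 1260 for Ddit3 and 1821 for Atf4. For Ddit3, Atf4 had rank 112. The r of 0.693 between Atf4 and Ddit3 left Ddit3 at rank 468 for Atf4, while an r of 0.815 placed Pdia4 at rank 5 for Hspa5.

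The members differed in their relation to the main axis of residual variation. Component 1 of the residuals of the 13360 genes held 16.5% of their variance, and its r was -0.753 with Atf4, -0.665 with Ddit3, -0.564 with P4hb and 0.451 with Canx. It was -0.342 with Pdia4, -0.264 with Calr, -0.059 with Hspa5 and 0.085 with Hsp90b1. The r with the scaled total of a rat was 0.580 for P4hb, 0.539 for Ddit3 and 0.481 for Atf4. It was 0.354 for Calr, 0.316 for Pdia4, 0.189 for Hspa5, 0.150 for Hsp90b1 and -0.146 for Canx. With the number of genes at 0 it was between -0.019 and 0.185 for all 8. The part of the scaled total in these relations was not tested.

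**Figure D5:**
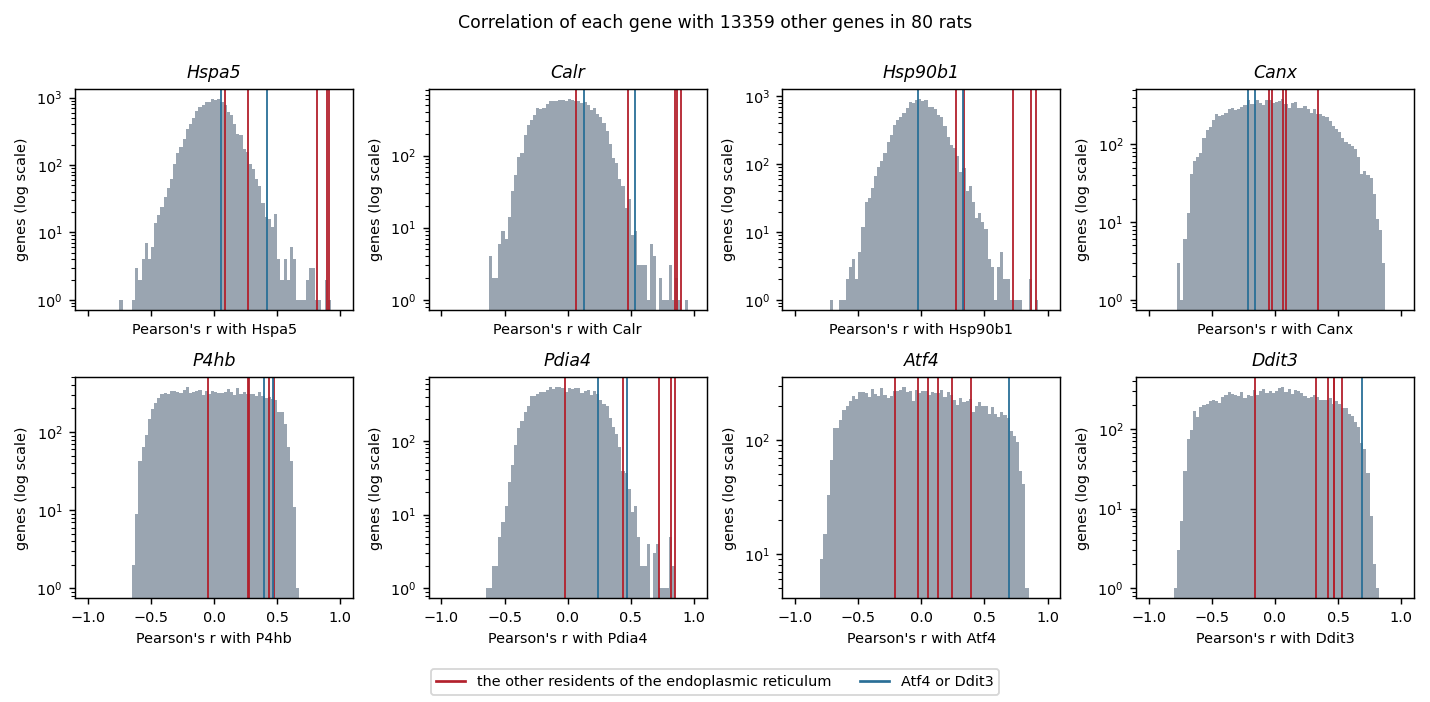
Distribution of Pearson's r of each of the 8 genes with 13359 other genes over 80 rats (grey, log scale of gene counts), with the other members as lines, red for ER residents and blue for Atf4 or Ddit3. The distributions of Hspa5, Calr, Hsp90b1 and Pdia4 are narrow with 3 red lines at the far right, and those of Canx, P4hb, Atf4 and Ddit3 are broad and hold all the lines.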

How the data were processed

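LHb polyadenylated RNA was measured in 81 rats. The file holds log2 values as deposited. The study's methods state that the authors trimmed reads (cutadapt), obtained estimated counts of genes from RSEM and the Ensembl rat transcriptome (Rnor_6.0 in the submitters' processing notes), adjusted them to the upper quartile with DESeq2, added a pseudocount of 1 and took log2. Weak libraries and genes were dropped, and versions were not stated. The labels list 87 samples, of which 6 lack a column because the authors dropped them (low read count 3, expression outlier 2, genotype mismatch 1). These were not analysed here. Undoing the log2 gave whole numbers in 100% of values (relative tolerance 1e-05), so adjusted counts had been rounded. Raw depth was not used, and the precision is that of the scaled counts. RSEM shares reads out among similar transcripts.

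Columns were matched to samples by title, and sex and batch came from the labels. Tests were run with limma 3.58.1 in R 4.3.3 on all 17512 genes, with an intensity trend, Benjamini-Hochberg adjustment and a threshold of 0.05, and were tested on simulated data. Sex was adjusted for batch and batch for sex, and contrasts within runs or batches for sex. The column runs were treated as a technical split only. Correlations used residuals after sex, batch and column run, beside all genes whose mean log2 level was 5 or more. Alternatives included another pseudocount, scaling, filter and transformation, and further covariates or fewer rats. Motifs were searched in the RefSeq promoter table (GRCr8), in which all 8 members were matched by symbol. Python 3.11.15 with numpy 2.4.6, pandas 2.3.3 and matplotlib 3.10.9 was used.

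The members, their symbols, the lists and the tests were chosen with earlier results of these data known. All 8 members are named. Of other genes, the rule was to name those with the highest and lowest correlation with the members. Printed were 2 of each, and the closest gene of Calr, since identifiers could not be paired with symbols. For the same reason the pathway and cell type marker lists were not used.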

Additional observations from a re-analysis of the deposited data

Results flagged for a closer look

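Dixon's criterion was applied to the values of the 8 genes wherever a sex within a batch had 4 to 10 rats. No rat stood apart in any of the 32 sets, and about 1.6 would by chance.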

How the results depend on the processing

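An alternative was taken as unchanged where a count of 0 stayed at 0 or another count stayed within 1.5 times. The number of members called was unchanged in this sense in 84 of 98 alternatives. For sex it was 0 in all of them, beside 0.04% to 0.171% of all genes. With column run as a covariate it was 2 for the F-test over batches (Atf4 and Pdia4), beside 35.3% of all genes. It was 1 for batch 4 against batch 2 (Atf4, with a changed sign, in place of Canx and Ddit3), beside 18.5%. For batch 3 against batch 2 it was 0 beside 0%. At an unadjusted limma p under 0.05 it was 0 there too, beside 1613 of 17512 genes. For batch 4 against batch 3 it was 1 beside 24.8%, and for batch 6 against batch 3 it was 1 beside 39.3%. For batch 6 against batch 4 it was 2 beside 9.12%. Batches 4 and 6 both lay in run 3, and only batch 3 was split over runs. That fit thus has less information by construction on contrasts of batches that cross runs. Its contrasts of batches 4 and 6 with batches 2 and 3 rest on the 3 rats of batch 3 in run 3. Each of these had over 1000 genes at 0. With the count of zero genes per rat in the fit it was 1 for batch 3 against batch 2, beside 1.94% of all genes. It was 0 for batch 6 against batch 4 beside 1.67%, and 0 for the same within run 3 beside 1.13%. At an unadjusted limma p under 0.05 the last 2 contrasts gave 2 members each, beside 3177 and 3205 of 17512 genes. Without rats with over 1000 genes at 0, batch 6 against batch 4 gave 0 beside 1.8%, and 0 within run 3 beside 2.82%. Unadjusted, each gave 3 members, beside 3630 and 4073 genes. Batch 6 against batch 4 also gave 0 without the intensity trend beside 5.48%, and 0 centred on the median of each rat beside 5.86%. Unadjusted, these settings gave 2 members each, beside 4362 and 4394 genes. Within run 3 it gave 1 beside 10.5% after a rank-based transformation. The causes of these were not tested.

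The sex estimate changed sign for Calr without batch 3 (0.0281) and without batch 6 (0.0251), for Pdia4 (0.00578) and Hsp90b1 (0.00144) without batch 6, for Atf4 with column run as a covariate (-0.0171), without rats with over 1000 genes at 0 (-0.00273) and without batch 2 (-0.00935), and for P4hb with 20 expression components (-0.155), none past the threshold. Calr in batch 6 against batch 3 changed sign with column run (0.206). Among 382 differences of single members, 27 became weaker and 5 stronger.

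The median r of the 15 pairs of ER residents, 0.437, was 0.589 with 20 components removed and 0.530 without rats with over 1000 genes at 0. In subsets chosen after seeing the data it was 0.545 in males, 0.295 in females, and 0.319, 0.590 and 0.297 in batches 3, 4 and 6. The other 8 alternatives moved it less. Of 448 alternative values of single pairs, 196 moved by more than 1 standard error. This was the error of r at 80 rats for every setting, and r varies more in subsets with fewer rats. The median of the 6 pairs among Hspa5, Calr, Hsp90b1 and Pdia4 stayed between 0.738 and 0.912.

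No paired analysis was possible because each rat gave 1 sample and its number is only a name. The alternatives for pathway and marker lists were not run, since identifiers could not be paired with symbols.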
